A study of Mus musculus with 2 samples.

Results

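The matrix metalloproteinases (MMPs), their tissue inhibitors (TIMPs) and the ADAMTS and ADAMTS-like proteins were compared between osteoblastic cells of Ebf2-deficient and Ebf2-heterozygous mouse embryos. The members were all genes whose platform symbol begins with Mmp, Timp, Adamts or Adamtsl followed by a digit, taken from probe sets that carry exactly 1 gene symbol. This gave 42 of the 18194 genes on the arrays, read by 78 probe sets: 18 MMP, 4 TIMP, 15 ADAMTS and 5 ADAMTS-like genes. Cells of tibia and femur from C57Bl/6 embryos at embryonic day 18.5 were sorted for the lacZ product of the Ebf2-lacZ allele, with FDG as the fluorogenic substrate, and then grown unpassaged in alpha MEM with 10% fetal calf serum. The groups were Ebf2+/- and Ebf2-/-, each with 1 Affymetrix Mouse Genome 430 2.0 array. Cells of both genotypes carry the lacZ marker at Ebf2, the heterozygous cells have lost 1 copy of the gene, and no array of wild-type cells was analysed here. The labels name 3 mice for each genotype without saying whether their RNA was pooled. No value below has a replicate check, and no p-value was computed.

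MMPs are zinc-dependent endopeptidases, made as inactive pro-enzymes, that cleave collagens and other matrix proteins at the cell surface or in the matrix. TIMPs bind their active sites, and TIMP-3 is held in the matrix and also inhibits several ADAM and ADAMTS enzymes. ADAMTS enzymes carry thrombospondin repeats; some cut the proteoglycans aggrecan and versican, others trim procollagens. ADAMTS-like proteins share those repeats but lack the catalytic domain, and several of them bind fibrillin microfibrils. In developing long bones these families act in the turnover of cartilage, in the bone collar and in the surrounding connective tissue.

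The deposited values are MAS5 signals, a linear intensity for each probe set. A value was taken as measured above a floor of 17.8 on the Ebf2+/- array and 23.8 on the Ebf2-/- array, the 95th percentile of 86 probe sets that read chemosensory receptors (olfactory, vomeronasal, taste). A gene was read from its brightest probe set, and values under the floor were set to it before the log2 ratio of Ebf2-/- over Ebf2+/- was taken. For genes that cleared it on a single array the fold is a bound, given as "at least", and genes whose signal there did not reach the floor of the other array have no fold. Among probe sets that read the same gene the log2 ratio varied with a pooled SD of 0.44 (4119 genes), or 1.36-fold, and this is the only error that can be given for a single ratio; it does not cover variation between animals or cultures. Of 9 osteoblast markers with a probe set, 6 were measured, and Ibsp, Dmp1 and Phex, markers of mature osteoblasts and osteocytes, were under the floor on both arrays. Of the 6, Col1a1 and Alpl were at least 2-fold higher in Ebf2-/- and Msx2 was 4.95-fold lower (summed signal of the list 15240.1 in Ebf2+/- and 28199 in Ebf2-/-). Most of this sum was Col1a1 (5478 and 12784) and Col1a2 (8597 and 15008), and Alpl was dim (25.4 and 51.8). Under 2-fold, Sp7 was 1.57-fold lower, Dlx5 1.90-fold higher and Col1a2 1.75-fold higher. All 15 measured macrophage and leukocyte markers of 16 were at least 2-fold lower in Ebf2-/- (summed signal 9127 in Ebf2+/- and 2179 in Ebf2-/-), with Itgam under the floor on both arrays. Of 9 measured chondrocyte markers 5 were at least 2-fold lower (sum 15129 and 5547, of which Col2a1 made up 8542 and 2592). Under 2-fold, Col11a1 was 1.55-fold lower, Sox9 was alike (213 and 209) and Comp was 1.70-fold higher, while Col9a2 has no fold. Of 9 measured fibroblast and mesenchymal progenitor markers 6 were at least 2-fold higher (13603 and 31864), and of 6 measured adipocyte markers 5 passed 2-fold upward and 1 downward (819 and 2898). The part of this cell composition in the results below was not tested, and fewer cells of a type and less RNA per cell cannot be told apart in these cell preparations. The 3' over 5' signal ratio of beta-actin, which is higher where RNA is degraded, was 1.97 in Ebf2+/- and 2.79 in Ebf2-/-.

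More of these genes had the higher signal in the Ebf2-deficient cells. Of the 42 members, 27 were measured on at least 1 array and 23 on both. At least 2-fold higher in Ebf2-/- were 8 of the 27, or 29.6%, where 6.30% of all 11785 measured genes passed that size. The 8 were the inhibitor gene Timp3, the MMP genes Mmp13 and Mmp19, the ADAMTS genes Adamts1, Adamts5, Adamts9 and Adamts10, and Adamtsl4. At least 2-fold lower were 0 of the 27, where 3.46% of all measured genes were; without a floor there were 2, where 7.91% of all genes were. Of the 23 members above the floor on both arrays, 18 had the higher signal in Ebf2-/- and 5 the lower, against 5036 and 5021 of all 10057 such genes. The median log2 ratio over the 27 measured members was 0.42, beside 0.03 for all measured genes. These medians include genes under the floor on 1 array, with floor-set values. Over the 23 members above the floor on both arrays the median was 0.42, beside 0.0008 for all such genes. With spike-in scaling, which lowers every ratio, 7 members were at least 2-fold higher and 0 lower, where 4.80% of all measured genes were higher and 4.73% lower.

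**Figure D1:**
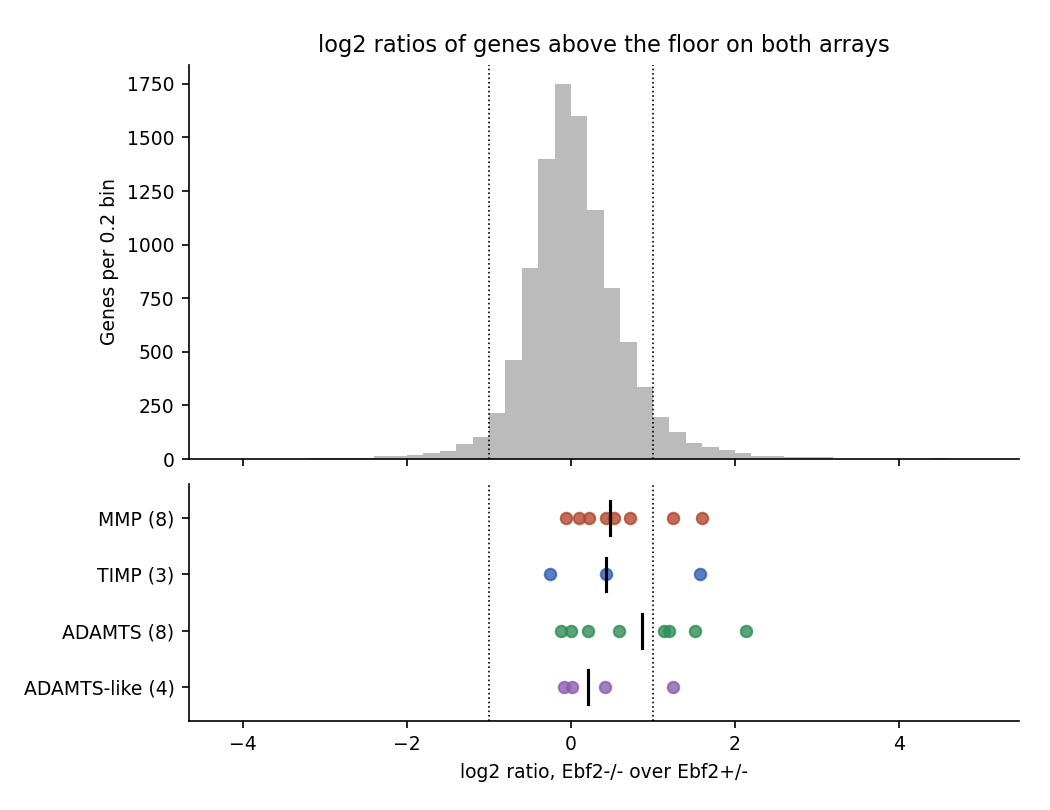
Histogram of the log2 ratio (Ebf2-/- over Ebf2+/-) of the 10057 genes above the floor on both arrays, and, under it on the same axis, the 23 members above the floor on both arrays as points by family, each with a black bar at the family's median. Dotted lines mark 2-fold; the points right of the upper line are 8 members, 4 of them ADAMTS genes, and no point lies left of the lower line.

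Each family had a positive median, with members on both sides of 0. The median log2 ratio was 0.42 over 9 measured MMP genes, 0.42 over 3 TIMP genes, 0.46 over 10 ADAMTS genes and 0.41 over 5 ADAMTS-like genes. The MMP median is the single value of Mmp2, the TIMP median that of Timp1 and the ADAMTS-like median that of Adamtsl3. By its other probe set Mmp2 was at -0.08, and with the mean over probe sets the MMP median was 0.33. The 10 ADAMTS genes include Adamts8 and Adamts15, which have no fold. They entered with 0.34 and 0.30, values set by the higher Ebf2-/- floor. Without a floor Adamts8 was at -1.48, Adamts15 at 0.08 and the ADAMTS median at 0.40. Over members above the floor on both arrays the median log2 ratio was 0.47 (8 MMP genes), 0.42 (3 TIMP genes), 0.86 (8 ADAMTS genes) and 0.21 (4 ADAMTS-like genes). The first set of medians lay close together and the second did not, and ratios were wide within families: ADAMTS ratios ran from -0.12 to 2.14, MMP ratios from -0.06 to 1.60 and TIMP ratios from -0.26 to 1.58. These are descriptions of 2 arrays, and no difference between families was tested.

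**Figure D2:**
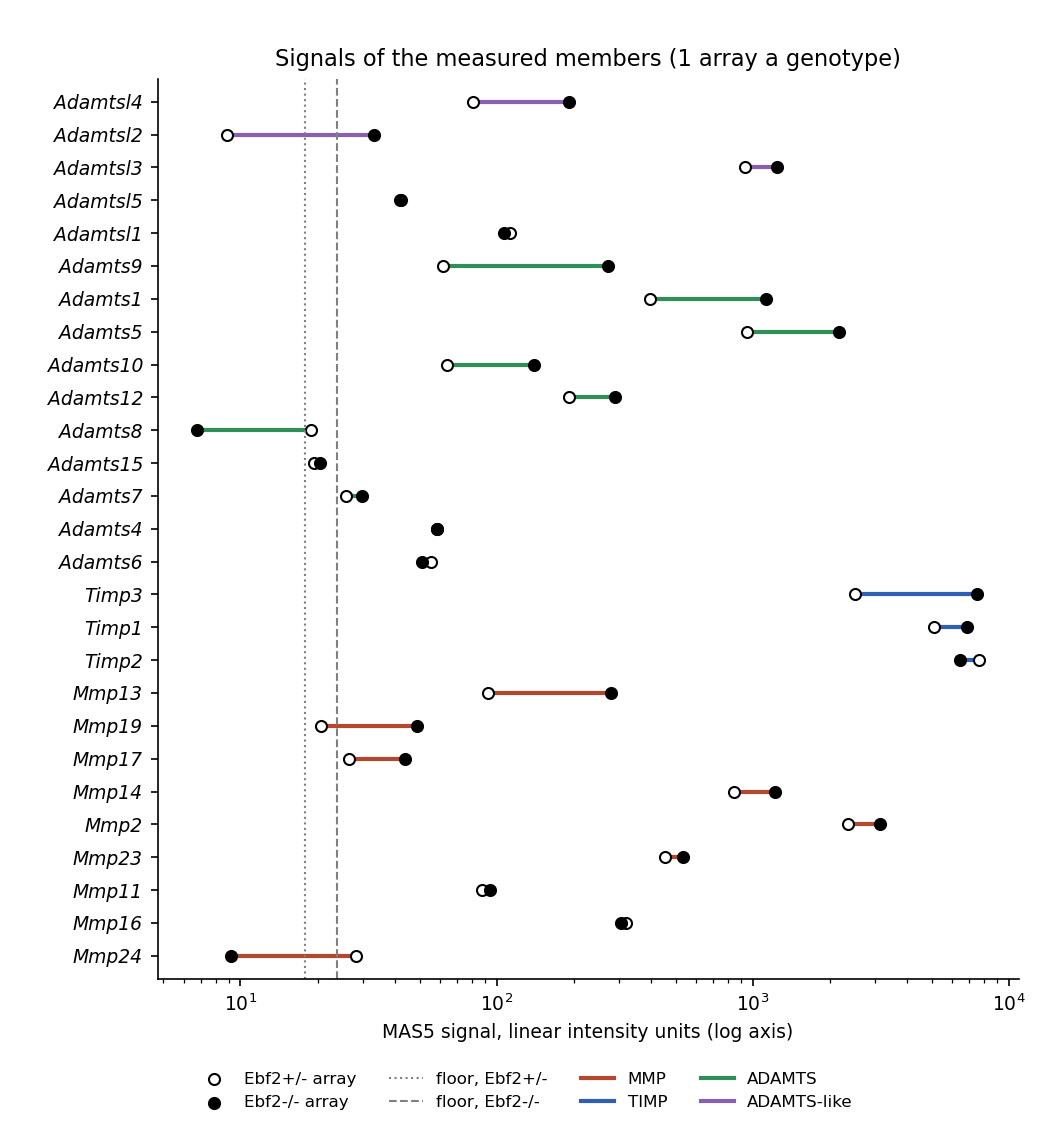
MAS5 signal (log axis) of each of the 27 measured members on the Ebf2+/- array (open circle) and the Ebf2-/- array (filled circle), 1 array a genotype, joined by a line coloured by family; vertical lines mark the floors of 17.8 and 23.8. The filled circle lies well to the right for the 8 members past 2-fold, most of all for Adamts9, and also for Adamtsl2, whose open circle is under the floor. It lies well to the left for Mmp24 (28.4 and 9.20) and Adamts8 (18.8 and 6.74), whose filled circles are under the floor. Timp2, Mmp16, Mmp11, Adamts4 and Adamtsl5 have both circles close together.

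The inhibitors diverged. Timp3, which encodes the matrix-bound inhibitor, read 2502 in Ebf2+/- and 7480 in Ebf2-/-, 2.99-fold higher. Its other probe sets read 1005 and 4123, 339 and 959, and 229 and 823, so that all 4 lay between 2.83-fold and 4.10-fold higher (mean log2 ratio 1.74 ± 0.25, SD over 4 probe sets). Timp3 was the member with the most probe sets past 2-fold in 1 direction. Timp1, which encodes a soluble inhibitor of most MMPs, read 5114 and 6864 with its only probe set, 1.34-fold higher. Timp2, whose product both inhibits MMPs and takes part in the activation of pro-MMP-2 at the cell surface, read 7661 and 6415, 1.19-fold lower. All 5 measured probe sets of Timp2 had the lower signal in Ebf2-/-, but they did not give 1 size. Of these, 4 lay between 1.01-fold and 1.49-fold lower, and the remaining one read 814 and 320, 2.54-fold lower; the mean log2 ratio was -0.48 ± 0.53 (SD over 5 probe sets). Both probe sets of Timp4 were under the floor on both arrays. The log2 ratio of Timp3 exceeded that of Timp2 by 1.84, and by 1.51 to 3.38 over the 20 pairs of their probe sets. A common scaling factor does not move this gap. Each of these differences is larger than the pooled SD of 0.44, but that is the SD of 1 ratio and not of a difference between 2. The 20 pairs reuse 4 Timp3 and 5 Timp2 probe sets and are not independent. The log2 ratio of Timp3 exceeded that of Timp1 by 1.16 (1.08 to 1.61 over 4 pairs).

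The sequences upstream of Timp3 and Timp2 are shown because these inhibitors stood at opposite ends of their family. They are from RefSeq (GRCm38.p6), 5' to 3' on the gene's strand, and end at the base before the annotated start. Capitals mark matches on either strand to any of 5 motifs. TGAGTCA is the motif of AP-1, the Fos and Jun dimer that drives many MMP genes. TGACGTCA is the cyclic AMP response element, which some AP-1 dimers also bind. TGTGGTT is the motif of RUNX proteins, among them the osteoblast regulator Runx2. CCCNNGGG is the core of the site bound by EBF proteins and is its own reverse complement. TATAAA is the TATA box. Each motif was counted by itself, whether or not it overlapped another.
Timp3, chr10:86300262-86300411, plus strand: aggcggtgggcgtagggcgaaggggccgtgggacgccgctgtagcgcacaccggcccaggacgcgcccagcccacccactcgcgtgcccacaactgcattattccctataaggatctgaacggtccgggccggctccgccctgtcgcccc
Timp2, chr11:118355412-118355561, minus strand: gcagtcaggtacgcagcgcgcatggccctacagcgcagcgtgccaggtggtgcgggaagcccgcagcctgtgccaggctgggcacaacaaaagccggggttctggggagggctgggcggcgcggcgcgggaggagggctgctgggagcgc
Neither stretch held a match, and neither did the whole window of 250 bases upstream of either gene. In 32851 RefSeq promoter windows of that length, 4.46% held the AP-1 motif, 1.55% the cyclic AMP response element, 4.40% the RUNX motif, 11.8% the EBF core and 12.4% the TATA box. A match is a string of letters and not a site known to be used, and its absence says nothing of the factor.

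**Figure D3:**
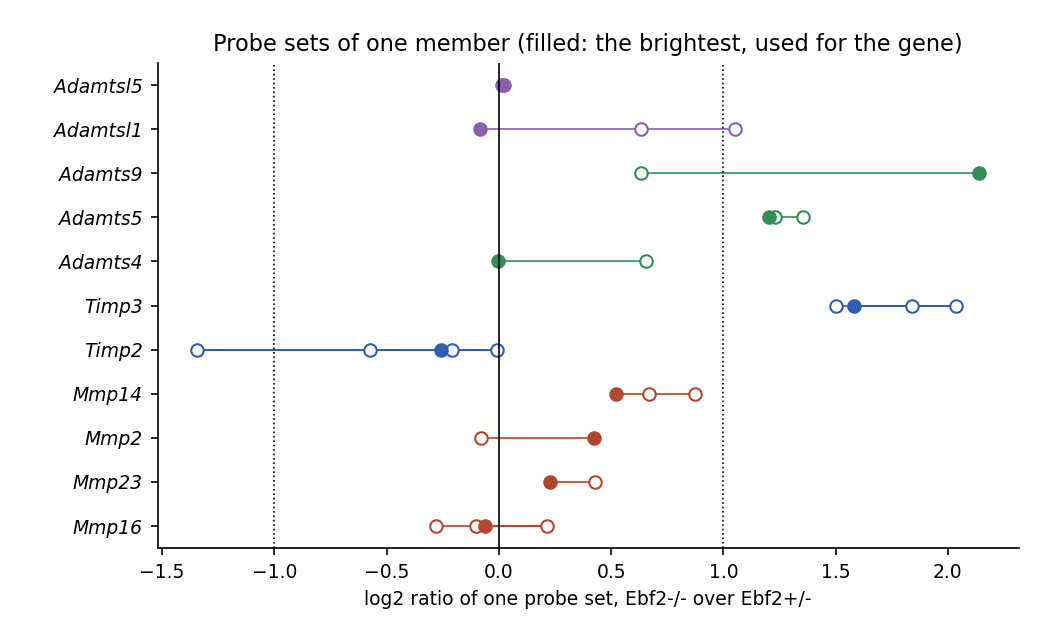
log2 ratio (Ebf2-/- over Ebf2+/-) of every probe set above the floor on both arrays, for the 11 members with at least 2 such probe sets; the filled circle is the brightest one, used for the gene, and dotted lines mark 2-fold. All circles of Timp3 and Adamts5 lie right of 1, all of Timp2 lie left of 0, and those of Adamts9, Adamtsl1 and Timp2 are the most spread out.

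Among the measured MMPs outside the membrane-type group, Mmp13 had the largest difference. Mmp13, the collagenase of hypertrophic cartilage and of osteoblasts, read 92.3 in Ebf2+/- and 280 in Ebf2-/-, 3.04-fold higher, by its only probe set. On the same array 5 of 9 measured chondrocyte markers were at least 2-fold lower, and of 6 measured osteoblast markers 2 were higher and 1 lower by that size; their part in the Mmp13 difference was not tested. Col10a1, the hypertrophic cartilage collagen, was under the floor on both arrays (2.41 and 2.43). Mmp19 read 20.6 and 49.0, 2.38-fold higher, but its Ebf2+/- signal stood just above the floor, and its other probe set was under the floor on both arrays; with a pseudocount of 50 its log2 ratio was 0.49, under 2-fold. Mmp2, the gelatinase that TIMP-2 binds in its pro-form, read 2349 and 3147 by the probe set with the brighter mean and 2592 and 2452 by the other, 1.34-fold higher and 1.06-fold lower. Its direction is therefore not set by these data. Mmp11, stromelysin 3, read 87.5 and 94.0, and Mmp23 455 and 532 (1.17-fold higher, and 1.35-fold by its other probe set).

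The 3 membrane-type MMPs above the floor on both arrays differed by less than 2-fold, and for Mmp24 only a bound can be given. Mmp14, which encodes MT1-MMP, the collagenase at the cell surface that activates pro-MMP-2, read 848 and 1218, 1.44-fold higher, and its other probe sets were 1.59-fold and 1.83-fold higher (mean log2 ratio 0.69 ± 0.18, SD over 3 probe sets). All 3 probe sets of Mmp14 thus had the higher signal in Ebf2-/- without reaching 2-fold. Mmp17 was dim at 26.6 and 43.9, 1.65-fold higher. Mmp16 read 320 and 307, and its 4 probe sets lay on both sides of 0 (mean log2 ratio -0.06 ± 0.20, SD over 4 probe sets). Mmp24 read 28.4 in Ebf2+/- and was under the floor in Ebf2-/-, at least 1.19-fold lower, and its other probe sets were under the floor on both arrays.

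Mmp13 is 1 of 9 MMP members that neighbour each other in the mouse reference, with no other coding gene than the MMP gene Mmp27 in between, which is not analysed here. Of these 9 it alone was measured. Mmp12, Mmp1b, Mmp3, Mmp1a, Mmp10, Mmp8, Mmp20 and Mmp7 were under the floor on both arrays, with signals of at most 10.0 in Ebf2+/- and 17.1 in Ebf2-/-. Mmp1a and Mmp1b are close copies of each other, so that their probe sets may not be independent. The upstream sequences of Mmp13 and of 4 neighbours under the floor are shown for what they share, with motifs in capitals as above and the same build.
Mmp13, chr9:7272364-7272513, plus strand: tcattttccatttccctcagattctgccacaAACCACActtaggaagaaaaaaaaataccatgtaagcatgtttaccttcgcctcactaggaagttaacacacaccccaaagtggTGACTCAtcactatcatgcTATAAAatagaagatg
Mmp3, chr9:7445722-7445821, plus strand: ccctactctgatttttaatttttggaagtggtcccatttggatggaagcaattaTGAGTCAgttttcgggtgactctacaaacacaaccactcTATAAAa
Mmp10, chr9:7502242-7502341, plus strand: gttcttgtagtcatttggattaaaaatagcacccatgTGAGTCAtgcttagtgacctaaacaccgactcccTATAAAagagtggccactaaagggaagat
Mmp1a, chr9:7464041-7464140, plus strand: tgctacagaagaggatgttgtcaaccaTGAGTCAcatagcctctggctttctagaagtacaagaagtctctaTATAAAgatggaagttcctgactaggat
Mmp7, chr9:7691990-7692089, plus strand: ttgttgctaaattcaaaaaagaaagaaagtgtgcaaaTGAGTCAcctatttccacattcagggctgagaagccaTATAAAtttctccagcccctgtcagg
The AP-1 motif was found in the 250 bases upstream of 7 of the 9 neighbouring genes, and in those of 0 of the 18 other members with a promoter entry. In Mmp13 it lay on the opposite strand with its first letter 35 bases before the start, and a RUNX motif began 119 bases before it. The TATA box was found in 7 of the 9 neighbours and in 2 of the 18 others. Of the 7 neighbours with an AP-1 motif only Mmp13 was measured, so the motif did not separate the measured gene from those under the floor.

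ADAMTS genes that encode proteoglycanases made up 3 of the 8 members past 2-fold. Adamts9, a versican-cleaving enzyme, had the largest ratio of all members by its brightest probe set and read 61.6 in Ebf2+/- and 272 in Ebf2-/-, 4.41-fold higher. Its dimmer probe sets gave less: 1 read 19.3 and 29.9, 1.55-fold higher, and the other was above the floor in Ebf2-/- only, at least 1.56-fold higher. The direction of Adamts9 was shared by all 3 probe sets, and its size was not: the mean over them was 1.14 in log2, below that of Timp3 (1.74) and of 5 other members, and with a pseudocount of 50 Timp3 (1.56) also exceeded it (1.53). Adamts1, which cleaves versican and aggrecan, read 396 and 1131 by its only probe set, 2.85-fold higher. Adamts5, the main aggrecanase of mouse cartilage, read 945 and 2173, 2.30-fold higher, with 2.34-fold and 2.56-fold for its other measured probe sets (mean log2 ratio 1.26 ± 0.08, SD over 3 probe sets). Adamts5 and Adamts1 are adjacent coding genes in the reference, and both were past 2-fold.

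The other proteoglycanase genes did not share this. Adamts4, also an aggrecanase, read 58.6 and 58.5, and 28.3 and 44.5 by its other probe set (1.57-fold higher). Adamts15 (19.4 and 20.5) and Adamts8 (18.8 and 6.74), adjacent to each other in the reference, cleared the floor in Ebf2+/- alone, with signals there that do not reach the Ebf2-/- floor, so no fold is given. Adamts20 was under the floor on both arrays. Aggrecan, Acan, was 4.85-fold lower in Ebf2-/- (428 against 88.3), and versican, Vcan, chosen after its values were known, had 438 and 941 (2.15-fold higher) with its brightest probe set, 1.37-fold with the next and 1.05-fold with the dimmest, and stayed under 2-fold with spike-in scaling. The enzyme genes past 2-fold thus stood beside 1 substrate gene with the lower and 1 with the higher signal.

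Of the other ADAMTS genes only Adamts10 passed 2-fold. Adamts10, whose product binds fibrillin-1, read 64.1 and 140.3, 2.19-fold higher, by 1 probe set, its other being under the floor on both arrays. Its log2 ratio was 0.74 with a pseudocount of 50 and 0.9998 with spike-in scaling, both under 2-fold. Adamts12, which can cleave the cartilage protein COMP, read 192 and 289, 1.51-fold higher, and Adamts7, with the same substrate, 25.9 and 29.9. Adamts6 read 55.7 and 51.2. Adamts3, a procollagen N-proteinase, and Adamts16, Adamts18 and Adamts19 were under the floor on both arrays.

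Among the ADAMTS-like genes, Adamtsl4, whose product binds fibrillin microfibrils, read 81.0 and 191, 2.36-fold higher, by its only probe set; with a pseudocount of 50 its log2 ratio was 0.88. Adamtsl3 read 934 and 1242, 1.33-fold higher. Adamtsl5 was alike on both arrays at 41.8 and 42.3. The 3 probe sets of Adamtsl1 disagreed: the brightest read 113 and 106 and the others 54.8 and 114 (2.07-fold higher) and 51.0 and 79.0 (1.55-fold higher). Adamtsl2 was under the floor in Ebf2+/- and read 33.1 in Ebf2-/-, at least 1.86-fold higher.

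The upstream sequences of the ADAMTS and ADAMTS-like genes past 2-fold that have a promoter entry are shown to compare them with Mmp13 and Timp3.
Adamts1, chr16:85803114-85803263, minus strand: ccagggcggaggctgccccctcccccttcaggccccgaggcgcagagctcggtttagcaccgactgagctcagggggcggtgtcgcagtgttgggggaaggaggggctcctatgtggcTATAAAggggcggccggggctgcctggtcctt
Adamts9, chr6:92943535-92943684, minus strand: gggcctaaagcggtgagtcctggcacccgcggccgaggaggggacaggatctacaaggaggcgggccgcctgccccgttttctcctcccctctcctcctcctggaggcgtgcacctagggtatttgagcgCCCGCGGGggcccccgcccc
Adamtsl4, chr3:95687918-95688067, minus strand: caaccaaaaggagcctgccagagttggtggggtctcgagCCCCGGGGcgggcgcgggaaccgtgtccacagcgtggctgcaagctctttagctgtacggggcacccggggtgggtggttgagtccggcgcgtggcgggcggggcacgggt
Adamts1 held a TATA box with its first letter 32 bases before the start, and Adamts9 and Adamtsl4 held the EBF core, 20 and 111 bases before it. Of the 5 members past 2-fold with a promoter entry, 2 held the EBF core, 2 the TATA box, 1 the AP-1 motif and 1 the RUNX motif. None of the 5 motifs was common to all 5 genes. Of all 27 members with a promoter entry, 7 held the EBF core, 9 the TATA box, 7 the AP-1 motif and 2 the RUNX motif. The EBF core was also found upstream of Mmp14, Mmp20, Mmp24, Adamts20 and Adamtsl3, none of them past 2-fold.

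The members under the floor on both arrays included enzymes made by blood cells. In all 15 members (21 probe sets) were under it, with signals from 0.228 to 17.1 in Ebf2+/- and from 0.452 to 18.8 in Ebf2-/-. Mmp9, the gelatinase of osteoclasts and neutrophils, read 2.13 and 13.4, Mmp8, the neutrophil collagenase, 6.11 and 8.79, and Mmp12, the macrophage elastase, 9.51 and 8.48. Macrophage markers read well above the floor in the same Ebf2+/- preparation, with Csf1r at 1529 and Ptprc at 205, while Mmp12 stayed under it. Of the 9 osteoclast markers, a list that includes Mmp9 itself, 2 were measured: Ctsk (858 and 700) and Nfatc1 (101 and 42.7). Of the 8 granulocyte markers only Elane was measured, at 23.1 in Ebf2+/-.

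**Figure D4:**
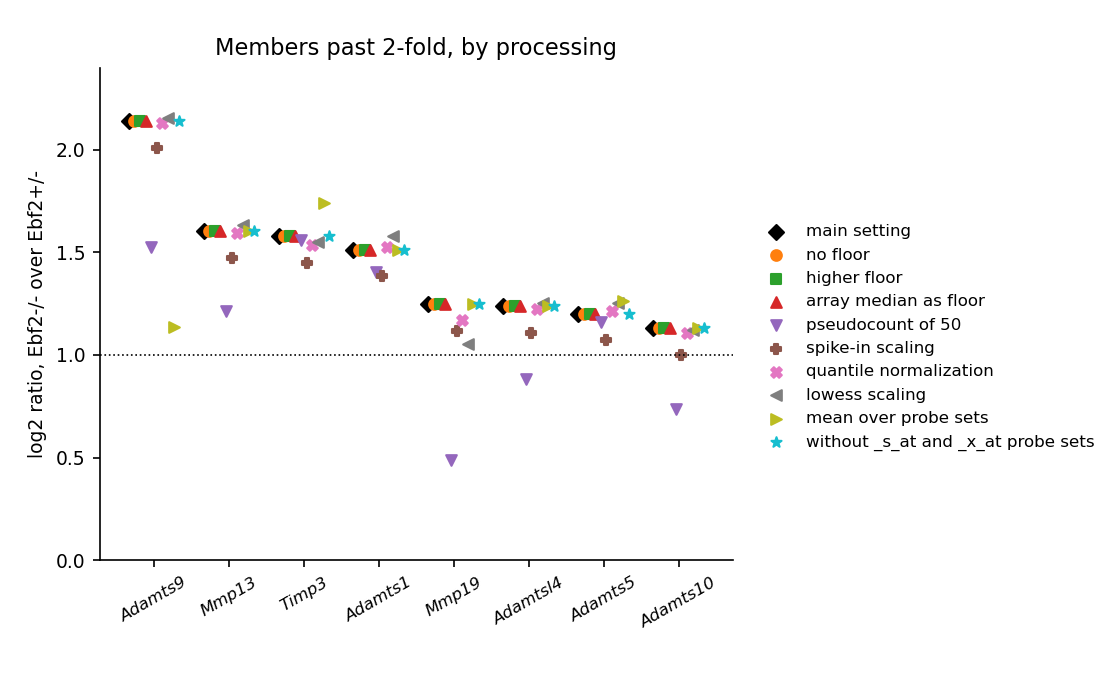
log2 ratio (Ebf2-/- over Ebf2+/-) of the 8 members past 2-fold, under the main setting and 9 other ways of processing the same 2 arrays; the dotted line marks 2-fold. Adamts9, Mmp13, Timp3, Adamts1 and Adamts5 stay above the line in every setting shown, while Mmp19, Adamtsl4 and Adamts10 lie under it with a pseudocount of 50, and Adamts10 also, barely, with spike-in scaling.

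Other genes of the pathway were read from lists of activators, inhibitors, relatives, substrates and regulators. Of 12 measured activators of pro-enzymes, 1 passed 2-fold upward and 1 downward (median log2 ratio 0.12). The higher one was Pcsk5, a proprotein convertase (124 against 344, 2.77-fold, and 6.55-fold by its other measured probe set). The lower one was Plaur, the urokinase receptor, which leukocytes also carry (107 against 28.5, 3.75-fold; log2 ratio -0.997 with a pseudocount of 50). Furin, the convertase of several MT-MMPs and ADAMTS pro-enzymes, had 164 and 239. Of 9 measured inhibitors and surface partners, 0 passed 2-fold either way (median 0.35), among them Reck, a membrane-anchored MMP inhibitor, with 689 and 843.

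Of 14 measured ADAM and astacin relatives, 2 passed 2-fold upward and 1 downward (median 0.49). Tll1, a procollagen C-proteinase of the astacin family, read 23.3 and 75.1 (3.22-fold; log2 ratio 0.77 with a pseudocount of 50), and Adam33 32.0 and 66.5 (2.08-fold, under 2-fold in 5 of the other settings). Adam8, a metalloproteinase which leukocytes also carry, was 3.20-fold lower (179 against 56.1). The measured macrophage and leukocyte markers were lower too, and their part in the Adam8 difference was not tested. Of 14 measured matrix substrates, 6 passed 2-fold upward and 2 downward (median 0.78). Elastin, Eln, was 8.93-fold higher, the fibrillin gene Fbn2 6.66-fold and decorin, Dcn, 4.43-fold.

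Of 15 measured transcription factors that act on MMP genes, 5 passed 2-fold upward and 1 downward (median 0.28). The AP-1 genes Fosb (30.6 against 279, 9.12-fold) and Junb (101 against 307, 3.05-fold) and the early growth response gene Egr1 (1809 against 3943, 2.18-fold; log2 ratio 0.99 with spike-in scaling) were higher. Fosl1, which encodes the AP-1 protein Fra-1, was 4.63-fold lower (117 against 25.3) by its brightest probe set and 1.43-fold higher by a dim one, and the mean over both gave -0.85 in log2. In the main setting Fos (2846 against 6119, 2.15-fold), Jund (444 against 915, 2.06-fold) and Jun (453 against 815, 1.80-fold) were also higher. Fosl2 was 1.08-fold lower (693 against 643). Most of the AP-1 genes listed thus had the higher signal in Ebf2-/-, where 50.1% of all genes above the floor on both arrays did. Fosl1 and Fosl2 had the lower signal by their brightest probe sets. Whether the listed factors act on any member was not tested.

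**Figure D5:**
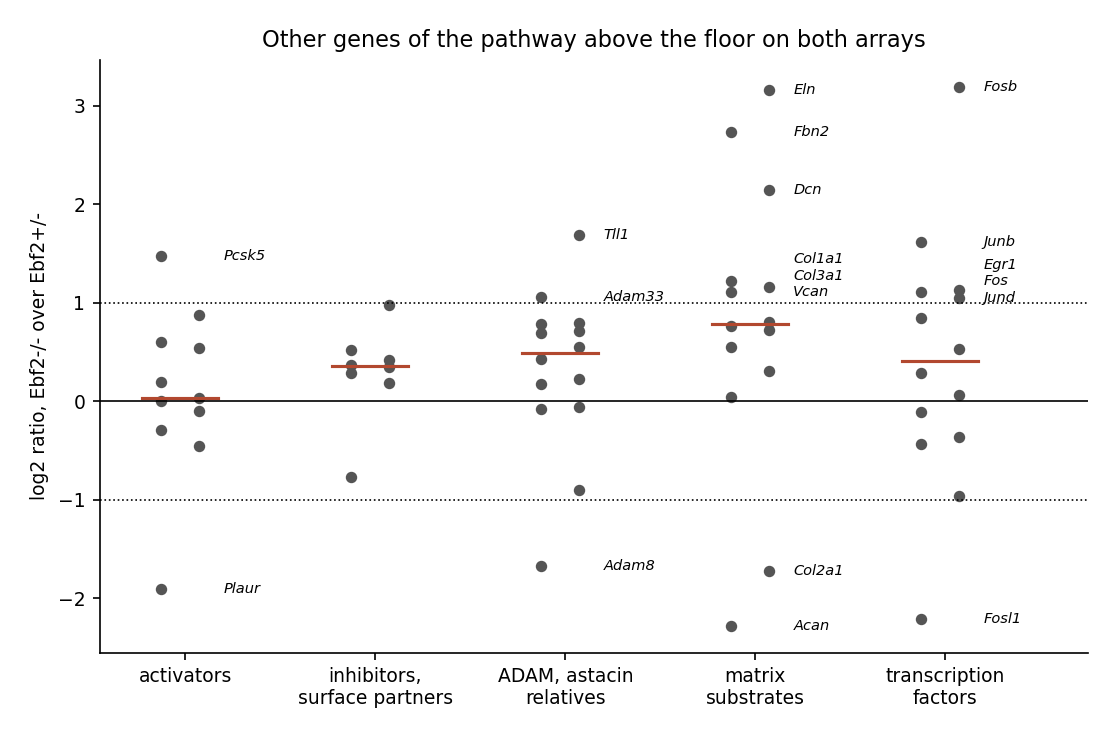
log2 ratio (Ebf2-/- over Ebf2+/-) of the listed genes that are no MMP, TIMP or ADAMTS member and were above the floor on both arrays, 1 point a gene, with red bars at the medians of the points shown and names beside points past 2-fold. The substrates and transcription factors spread most widely, from Acan at -2.28 to Eln at 3.16 and from Fosl1 at -2.21 to Fosb at 3.19, while all inhibitors and surface partners lie within 2-fold.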

How the data were processed

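Signals of 45101 probe sets on 2 arrays, 1 of Ebf2+/- and 1 of Ebf2-/- cells, were used. The deposited values are MAS5 intensity values of the authors on a linear scale, per the submitters' processing notes; the MAS5 version and the array target are not given in the sources used here. With 2% of values trimmed at either end the mean was 100.001 on each array, so the deposited intensities share 1 scale and hide a shift common to most genes. Gene symbols came from the platform annotation: 34958 probe sets had 1 symbol, 932 several and 9211 none listed, and the last 2 kinds were left out.

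Floors, the choice of the brightest probe set (by mean log2 signal) and 2-fold as the reference size are as given with the results. Every measured member past 2-fold and every TIMP is named, and the text gives the other measured members in their role groups. From each pathway list the text names up to 4 genes past 2-fold with the largest ratio; other listed genes were named after their values were seen. Members, lists and settings were chosen with earlier results of these data known. With 1 array a genotype no test could be made, and precision is limited by the number of arrays. All 42 members matched the reference (GRCm38.p6) by gene ID, and 27 had a promoter entry. Python 3.11.15, numpy 2.4.6, pandas 2.3.3, statsmodels 0.14.6 (lowess span 0.3) and matplotlib 3.10.9 were used. The procedure was tested on simulated data.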

Additional observations from a re-analysis of the deposited data

How the results depend on the processing

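Each value was recomputed under 9 other settings: no floor, a floor at the 99th percentile of the receptor probe sets, each array's median as floor, a pseudocount of 50, spike-in, quantile and lowess scaling, the mean over probe sets, and no probe sets ending in _s_at or _x_at. The count of members at least 2-fold higher, 8 in the main setting, was 5 with a pseudocount of 50, without Adamts10, Adamtsl4 and Mmp19, which this setting shrinks because they are dim. It lay between 7 and 9 in the others. At 1.5-fold it was 11, but the share of all measured genes past that size was not computed, so this count has no comparison. Of all measured genes 2.38% passed 2-fold upward with that pseudocount. Without a floor 2 members were at least 2-fold lower (Adamts8 and Mmp24, both under the floor in Ebf2-/-), where 7.91% of all measured genes were. In all other settings the count was 0. Neither count can be read as low, because the shares of all genes amount to few of 27 members. The family medians and the median of all members stayed above 0 in every setting; the widest range was that of the ADAMTS genes, 0.21 with the array median as floor to 0.86 with the higher floor. Spike-in scaling lowers each log2 ratio by 0.13, which puts the median of genes above the floor on both arrays at -0.13; it leaves 16 of the 23 members above the floor on both arrays with the higher signal, against 18 in the main setting, and 566 genes at least 2-fold higher and 557 lower in all. Of 241 recomputed single-gene ratios 233 moved by less than the pooled SD of 0.44 and 8 by more. Several settings return the main value by design, such as other floors for a bright gene or the mean over 1 measured probe set. The count of 233 is therefore not a measure of stability. No member past 2-fold changed its direction. No paired analysis was possible because each genotype has 1 array.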

Other observations

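Several members overlap another coding gene in the mouse reference, whose signals are given in the order Ebf2+/- and Ebf2-/-. Timp3 overlaps the synapsin gene Syn3, which was under the floor on both arrays (16.4 and 18.2). Timp1 overlaps Syn1, which read 3.07 in Ebf2+/- and 29.9 in Ebf2-/-, above the floor in the latter only. Mmp19 overlaps Tmem198b, with 110.2 and 154, and Mmp23 overlaps Mib2, with 87.0 and 144, both higher in Ebf2-/- as the members were. For Timp2, whose probe set at 2.54-fold lower stands apart from its others, the overlapping gene Cep295nl read 30.4 and 22.0, the latter under the floor.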
